A study of Mus musculus with 4 samples.

Results

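The TGF-beta family genes described here are 9 genes of mouse tongue epithelial cells: the ligand genes Tgfb1, Tgfb2, Tgfb3 and Inhba, the receptor genes Tgfbr1 and Tgfbr2, the signal transducer Smad3, its inhibitor Smad7, and Tgfbi, a gene named for its induction by TGF-beta. They were taken by symbol, and all 9 of 9 were found among 54446 genes with an Ensembl ID. RNA was sequenced from 4 libraries of tongue-derived epithelial cells of C57BL/6 mice grown in RPMI-1640 with serum. The 2 controls (1 and 2) are labelled wild type, and the 2 others (3 and 4) are labelled as carrying an Otub2 knockout throughout the animal. Otub2 is a deubiquitinase, an enzyme that removes ubiquitin from proteins. The labels give no age, sex, deleted exon or count of animals, and p-values therefore reflect only how these libraries varied, which may be technical.

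TGF-beta ligands are secreted bound to a propeptide and to latent TGF-beta binding proteins, and are set free by integrins or proteases. The free ligand joins the type II receptor (Tgfbr2) to the type I receptor (Tgfbr1), which phosphorylates SMAD2 and SMAD3; these enter the nucleus with SMAD4. Activin A, a dimer of the chain that Inhba encodes, reaches the same SMADs through its own receptors. In stratified epithelium the pathway is best known for restraining keratinocyte division and for matrix genes in wound repair.

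Total counts over genes were 12185345 and 11548186 in the controls, 22719550 in library 3 and 18911259 in library 4. The columns of libraries 3 and 4 are headed OE in the deposited table while the titles say KO, and the titles were followed. Otub2 itself was at 27.5 and 26.9 CPM across the controls against 19 and 24 CPM in the knockout-labelled pair (log2 fold change -0.34, edgeR adjusted p = 0.485), and its gene-level count does not check a deletion. CPM here is the count per 1000000 of a library size scaled by TMM, edgeR's trimmed mean method. All 12 oral keratinocyte markers were tested, and their summed level was 57535 to 63154 CPM in the controls and 31604 to 43863 CPM in the others, a sum carried by Krt14, Krt13 and Krt6a. Singly, 10 of the 12 lay below both controls in library 3; in library 4, 7 lay below and 5 above, among the latter Krt5 and Trp63 (1.67-fold and 1.6-fold the controls). Library 3 stood apart: 8 tested salivary secretory markers summed to 423710 CPM there against 7.69 to 9.87 CPM in the controls and 29.1 CPM in library 4, and 9 cardiomyocyte markers to 18517 CPM against 58.5 to 59.8 and 34.9 CPM. Among these markers the secretory gene Pip was at 0 in both controls. Fibroblast markers (11 of 12 tested) summed to 218 and 235 CPM across the controls, 709 in library 3 and 477 in library 4, with 9 of the 11 above both controls in library 3 and, in library 4, 7 above and 3 below. Smooth muscle and pericyte markers (9 of 10) were at 239, 277, 1200 and 253 CPM in the same order, endothelial markers (10 of 10) at 108, 89.2, 375 and 97.7 CPM, leukocyte markers (10 of 10) at 84, 77.1, 164 and 63.2 CPM, and skeletal muscle markers (10 of 10) at 55.7, 51.6, 441 and 99.7 CPM. The 441 CPM came mostly from Ckm (290 CPM) and Acta1 (130 CPM), and 7 of the 10 skeletal muscle markers lay below both controls in library 3. In whole libraries, more cells of a type and more RNA per cell cannot be told apart.

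Inhba was the member with the largest difference, higher in both libraries labelled Otub2 knockout, and most other members were highest in library 4. Tgfb1 and Tgfb2 stood on opposite sides of the controls, with Tgfb2 above and Tgfb1 below them in library 3 and the reverse in library 4. No member passed the edgeR test over all genes. Of the 9 members, 5 lay above both controls in both libraries (Inhba, Tgfb3, Tgfbr2, Smad3 and Tgfbi), 0 lay below and 4 did neither. The share above was 26.9% of all 21916 genes tested and 42.7% of the 11788 that averaged 5 CPM or more, which 8 of the 9 members reached. Tgfb3, counted among the 5 above, did not reach that level, so the 5 of 9 and the 42.7% cover unlike sets. The share below was 33.1% and 12%. The median log2 fold change was 0.72 over the members, 0.09 over all genes tested and 0.41 over genes averaging 5 CPM or more. edgeR called 0 genes higher and 0 lower (0% of 21916; smallest adjusted p 0.162). At an unadjusted p under 0.05 it had 2064 higher (9.42%) and 3325 lower (15.2%). DESeq2 called 751 higher (4.36%) and 262 lower (1.52%), whereas voom gave 0 in either direction. Taken singly, library 3 was above both controls in 5 and library 4 in 7 of the 8 members that averaged 5 CPM or more, against 58.1% and 64.2% of all genes at that level.

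**Figure D1:**
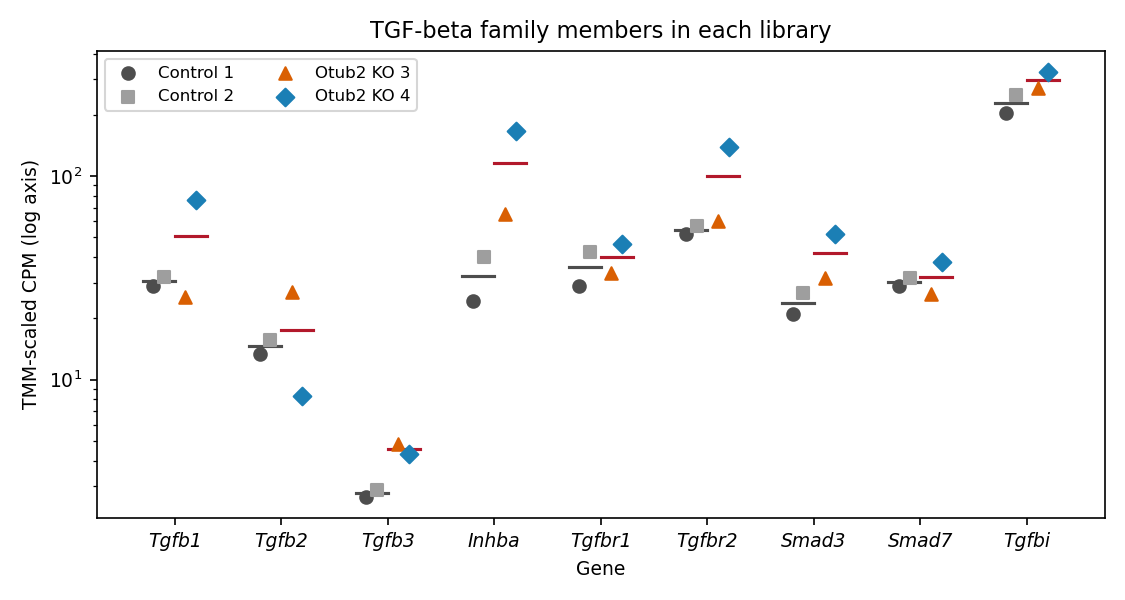
TMM-scaled CPM (log axis) of the 9 genes in each of the 4 libraries, with points for libraries and short lines for the mean of each group (n = 2). Inhba lies higher in both libraries labelled Otub2 KO, at 65.4 and 166 CPM against 24.4 and 40 CPM, while Tgfb1 and Tgfb2 spread in opposite directions between libraries 3 and 4.

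Among the ligands, Inhba (ENSMUSG00000041324, chromosome 13, 16011851 to 16031621, plus strand, GRCm38 as for all positions here) was covered by 349 and 546 counts in the controls, 937 in library 3 and 3429 in library 4. The scaled levels were 24.4 and 40 CPM across the controls, 65.4 in library 3 and 166 in library 4. Both libraries labelled Otub2 knockout were above both controls, which themselves differed by 0.71 on the log2 scale. Against the mean of the controls Inhba was 2.09-fold higher in library 3 and 5.29-fold higher in library 4. Its log2 fold change was 1.85 (SE 0.537, 95% interval from 0.48 up to 3.21, n = 2 per group; edgeR adjusted p = 0.168, unadjusted p = 0.0174). It was the only member with an unadjusted p under 0.05. In the higher direction 9.42% of all genes reached this, and 15.6% of those averaging 5 CPM or more, as Inhba does. With DESeq2 Inhba was called higher (adjusted p = 0.045), as were 4.36% of the 17242 genes to which DESeq2 gave an adjusted p. Over the 14 alternative settings its adjusted p ran from 4.65e-18 to 0.832. Summed fibroblast markers were at 709 and 477 CPM against 218 and 235 CPM. In library 4, where Inhba was highest, that sum came mostly from Col1a1 (164 CPM), Col3a1 (90 CPM) and Col1a2 (84.3 CPM). Singly, 7 of the 11 fibroblast markers lay above both controls in library 4, among them Col6a3 (2.18-fold) and Lum (1.45-fold). The 3 below both controls were Pdgfra, Dcn and Dpt, at 0.861-fold, 0.622-fold and 0.472-fold. Salivary secretory markers there summed to 29.1 CPM against 7.69 to 9.87 CPM in the controls, and cardiomyocyte markers to 34.9 CPM against 58.5 to 59.8 CPM. The salivary sum came mostly from Mucl2 (16.8 CPM) and Bpifa2 (7.31 CPM). Singly, 3 of the 8 tested salivary markers lay above both controls in library 4 and 4 below. The part of other cell types in the level of Inhba was not tested.

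Tgfb1 (ENSMUSG00000002603, chromosome 7, 25687002 to 25705077, plus strand), the best-known TGF-beta ligand, was at 28.7 and 32.1 CPM across the controls, 25.6 in library 3 and 75.9 in library 4. Library 4 was far above the controls and library 3 just below them. The log2 fold change was 0.74 (SE 0.541, edgeR adjusted p = 0.405), and it was -0.25 without library 4. Tgfb2 (ENSMUSG00000039239, chromosome 1, 186622792 to 186705989, minus strand), a second ligand of the same receptors, was at 13.4 and 15.7 CPM across the controls, 26.9 in library 3 and 8.32 in library 4. Here library 3 was above both controls and library 4 below both. The log2 fold change was 0.27 (SE 0.61, edgeR adjusted p = 0.785), and the differences of the single libraries from the controls were 0.88 and -0.79. Endothelial markers were also highest in library 3, at 375 CPM, and their sum of 97.7 CPM in library 4 lay between the controls. Singly, 5 of these 10 markers lay below both controls in library 4 and 3 above. Cardiomyocyte and leukocyte markers were highest in library 3 too, and their sums of 34.9 and 63.2 CPM in library 4 were below both controls. Fibroblast, salivary secretory and skeletal muscle sums were above both controls in library 4. Singly, 3 of the 8 tested salivary secretory markers lay above both controls there and 4 below. Of the 10 skeletal muscle markers, 6 lay above and 4 below. The part of any of these lists in the level of Tgfb2 was not tested. Of genes averaging 5 CPM or more, 9.65% were above both controls in library 3 and below both in library 4, and 12.5% the other way round. The difference between libraries 3 and 4 was not tested, since each is a single library.

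Tgfb3 (ENSMUSG00000021253, chromosome 12, 86056745 to 86079041, minus strand) was the rarest member, with 38 and 39 counts in the controls, 69 in library 3 and 89 in library 4. Exact Poisson 95% intervals, which cover counting error only, were 26.9 to 52.2 and 27.7 to 53.3 counts in the controls, 53.7 to 87.3 in library 3 and 71.5 to 110 in library 4, at unequal depths. On the CPM scale it was at 2.66 and 2.86 in the controls and at 4.82 and 4.31 in the others. Both libraries labelled Otub2 knockout lay above both controls (log2 fold change 0.72, SE 0.452, edgeR adjusted p = 0.341).

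A share within a library does not depend on how libraries are scaled, so the 3 TGF-beta isoforms were also compared by FPKM, the deposited count per kilobase of gene length and per unit of library total, which allows genes of different length to be set side by side. Tgfb1 made up 64.8% and 64.1% of the summed Tgfb1, Tgfb2 and Tgfb3 FPKM in the controls, 45.5% in library 3 and 84.7% in library 4. Tgfb2 made up 26.3% and 27.4% in the controls, 41.7% in library 3 and 8.09% in library 4, and Tgfb3 8.95%, 8.51%, 12.8% and 7.16%. The controls were nearly alike, whereas libraries 3 and 4 departed from them on opposite sides. The mean share of Tgfb1 therefore differed by only 0.695 percentage points between the groups (exact two-sided permutation p = 1; with 2 against 2 libraries the smallest possible is 0.333). The ratio of Tgfb2 to Tgfb1 FPKM was 0.406 and 0.427 in the controls, 0.916 in library 3 and 0.0954 in library 4. The ratio of Inhba to the summed FPKM of the 3 isoforms, chosen after its values were seen, was 0.435 and 0.63 in the controls, 0.92 in library 3 and 1.46 in library 4. Both libraries labelled Otub2 knockout were above both controls in this ratio (exact permutation p = 0.333, the smallest possible).

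**Figure D2:**
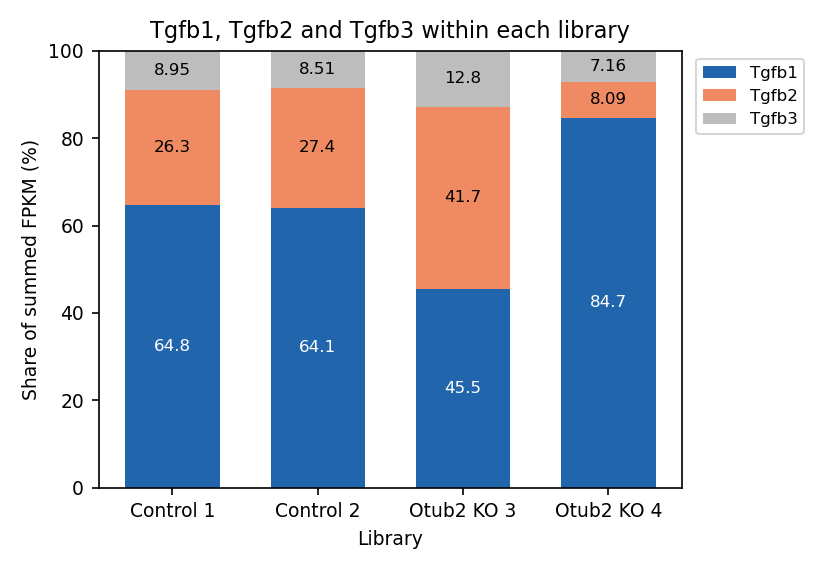
Share of Tgfb1, Tgfb2 and Tgfb3 in their summed FPKM (%) in each library, as stacked bars that add up to the whole. Tgfb1 takes 64.8% and 64.1% in the controls, 45.5% in Otub2 KO 3 and 84.7% in Otub2 KO 4.

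The promoter sequences of the members were also read, and whether they bear on the levels was not tested. For 7 of the 9 members a window was found in the RefSeq promoter table (GRCm38.p6), and none for Tgfb3 and Smad7. The last 110 bases before the annotated start are shown for Tgfb1, Tgfb2 and Inhba, chosen after their levels were seen, 5′ to 3′ on the gene's strand. Capitals mark matches to the GC box motif GGGCGG, bound by factors of the Sp1 family, on either strand in Tgfb1. In the others they mark matches to the TATA box motif TATAAA, at whatever distance from the start.
Tgfb1, chr7:25686892-25687001, plus strand: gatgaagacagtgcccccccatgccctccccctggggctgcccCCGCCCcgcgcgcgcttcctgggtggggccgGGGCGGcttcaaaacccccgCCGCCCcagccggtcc
Tgfb2, chr1:186705990-186706099, minus strand: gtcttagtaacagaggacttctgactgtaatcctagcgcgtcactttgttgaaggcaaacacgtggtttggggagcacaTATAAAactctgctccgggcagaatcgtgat
Inhba, chr13:16011741-16011850, plus strand: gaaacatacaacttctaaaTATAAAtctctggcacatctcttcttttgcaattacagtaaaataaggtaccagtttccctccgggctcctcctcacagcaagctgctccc

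In the 250 bases before its start, Tgfb1 held 5 matches to GGGCGG on either strand and none to TATAAA, with 75.2% G and C. Tgfb2 held TATAAA starting 31 bases before the start and no GGGCGG, with 53.6% G and C. Inhba held TATAAA starting 91 bases before the start, farther off than in Tgfb2, and no GGGCGG, with 43.2% G and C. On both strands, 12.4% of the 32851 windows in the table held TATAAA and 32.7% held GGGCGG. The short sequence that SMADs bind, CAGAC, was found in 42.2% of all windows, among them those of Tgfb2 and Tgfbi (2 matches each), in that of Tgfbr2 and in 1 of the 2 windows of Tgfbr1, and not in those of Tgfb1, Inhba and Smad3. TGACGTCA (the cAMP response element, in 1.55% of windows) and TGANTCA (the AP-1 site, in 6.75%) were in none of the 8 member windows. These matches describe the letters in these windows and not bound sites.

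Of the receptors, Tgfbr2 (ENSMUSG00000032440, chromosome 9, 116084293 to 116175360, minus strand), the type II receptor that binds ligand first, was at 51.8 and 56.8 CPM across the controls, 60.4 in library 3 and 139 in library 4. Library 4 stood well above the rest, and library 3 just above the higher control. The log2 fold change was 0.88 (SE 0.441, edgeR adjusted p = 0.265), and 0.15 without library 4. Tgfbr1 (ENSMUSG00000007613, chromosome 4, 47353222 to 47414931, plus strand), the type I receptor kinase, was at 28.9 and 42.6 CPM across the controls, 33.5 in library 3 and 46.6 in library 4. Its groups overlapped (log2 fold change 0.16, SE 0.338, edgeR adjusted p = 0.766), and the fold change was -0.08 without Control 1 and -0.10 without library 4. By FPKM the type II transcript exceeded the type I transcript in every library, with Tgfbr2 to Tgfbr1 ratios of 1.43 and 1.06 in the controls, 1.44 in library 3 and 2.38 in library 4. The log2 ratio of Tgfbr1 to Tgfbr2 was lower by 0.59 in the libraries labelled Otub2 knockout (-0.30 in the controls, -0.89 in the others, exact permutation p = 0.333, the smallest possible). Library 3 and Control 1 were nearly level in it.

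Inside the cell, Smad3 (ENSMUSG00000032402, chromosome 9, 63646767 to 63757994, minus strand) was at 21 and 26.6 CPM across the controls, 31.4 in library 3 and 52 in library 4. Both libraries labelled Otub2 knockout were above both controls (log2 fold change 0.81, SE 0.362, 95% interval from -0.11 to 1.73; edgeR adjusted p = 0.23), and the fold change was 0.40 without library 4. Smad7 (ENSMUSG00000025880, chromosome 18, 75367529 to 75395935, plus strand), an inhibitory SMAD that the pathway itself induces and that blocks the type I receptor, was at 28.8 and 31.6 CPM across the controls, 26.3 in library 3 and 37.9 in library 4. These values straddled the controls, and the log2 fold change was 0.09 (SE 0.313, 95% interval -0.70 to 0.89, edgeR adjusted p = 0.863), or -0.20 without library 4. The ratio of Smad7 to Smad3 FPKM, also chosen after its values were seen, was 1.68 and 1.46 in the controls, 1.03 in library 3 and 0.894 in library 4. The groups did not overlap, with both knockout-labelled values the lower (exact permutation p = 0.333, the smallest possible).

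Tgfbi (ENSMUSG00000035493, chromosome 13, 56609523 to 56639562, plus strand), which encodes a secreted adhesion protein of the matrix, was the most abundant member per length in every library, at 62.1 and 76.2 FPKM in the controls, 44.6 FPKM in library 3 and 93.4 FPKM in library 4. On the scaled CPM basis it was at 205 and 250 in the controls and at 270 and 325 in the others. The groups did not overlap, but the gap of library 3 to Control 2 was smaller than the gap between the controls (log2 fold change 0.39, SE 0.283, edgeR adjusted p = 0.405).

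Below Tgfbi, the order of the members per length changed. In the controls Smad7 came next, at 7.25 and 8.02 FPKM, close to Tgfbr2 at 7.21 and 7.97 FPKM, and Inhba ranked 6 of 9 at 4.35 and 7.19 FPKM. In libraries 3 and 4 Inhba ranked 2 of 9 at 6.37 and 28.1 FPKM, and Tgfbr2 ranked 3 at 4.59 and 18.4 FPKM. Tgfb2 and Tgfb3 ranked 8 and 9 in all 4 libraries. FPKM in library 3 is divided by a total that holds its secretory transcripts, so it serves only for orders within a library.

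Each library labelled Otub2 knockout was also set alone against the controls, in a fit where the lone library is taken to vary no more than the controls. Without library 3, edgeR called Inhba, Tgfb1, Tgfbr2 and Smad3 higher and Tgfb2 lower (log2 fold changes 2.39, 1.35, 1.38, 1.15 and -0.78), where 18.8% of all genes were called higher and 22% lower. Without library 4 it called Inhba and Tgfb2 higher (1.02 and 0.88), where 22.4% were called higher and 12.7% lower. These 2 fits share the controls.

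**Figure D3:**
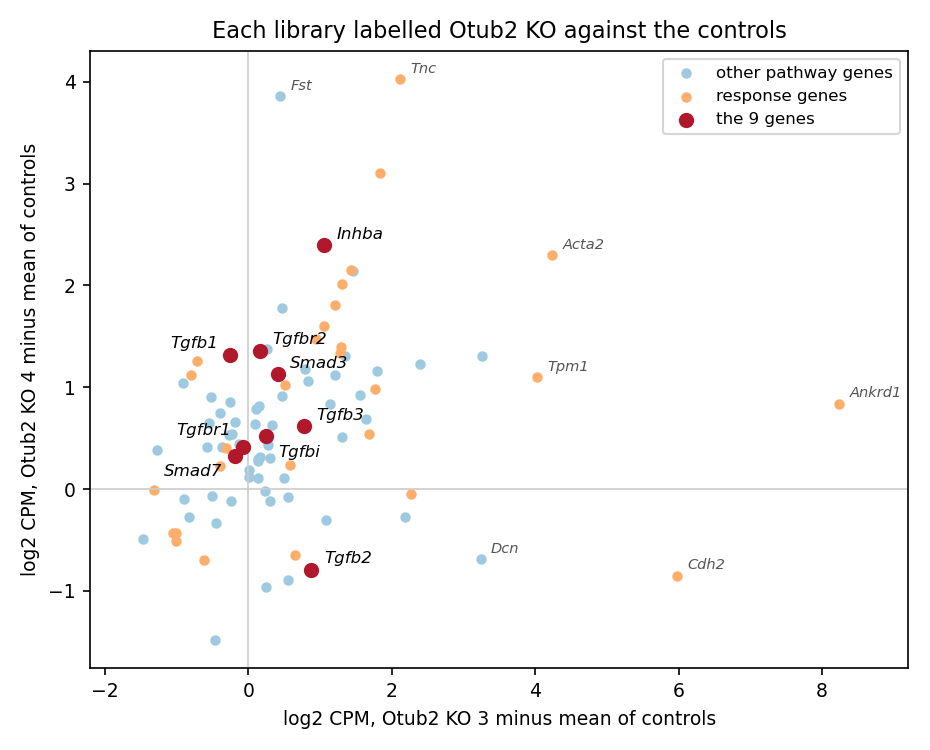
Difference in log2 CPM from the mean of the controls in Otub2 KO 3 (horizontal) and Otub2 KO 4 (vertical) for the 9 genes (red), the response genes (orange) and the other pathway genes (blue). Inhba lies at 1.06 and 2.40, Tgfb2 at 0.88 and -0.79, and the response genes Ankrd1 and Cdh2 stand far to the right, at 8.24 and 5.98 in library 3.

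The directions of several members depended on the scaling of the libraries. The median log2 fold change of all genes tested moved from 0.09 with TMM to -0.38 with upper-quartile scaling, -0.35 with library size only and -0.22 with libraries centred on their medians. Inhba and Tgfb3 still lay above both controls with upper-quartile scaling and with median-centred libraries, where 10.4% and 12.5% of all genes did, and Tgfb2, Tgfbr1 and Smad7 turned to negative fold changes in both. With library size only, 0 members lay above both controls, against 9.17% of all genes. Relative to the median of all genes, Inhba was higher by 1.76, and by 1.11 to 2.53 over the 15 settings. Tgfb3, Tgfbr2 and Smad3 were also above that median in every setting that held them, by 0.59 to 1.17, 0.24 to 1.52 and 0.4 to 1.29. Tgfb1 ran from -0.16 to 1.49 relative to it, Tgfb2 from -0.64 to 0.98, Tgfbr1 from -0.25 to 0.62, Smad7 from -0.32 to 0.54 and Tgfbi from -0.02 to 0.84. In the main setting the median was higher, 0.41, over genes averaging 5 CPM or more, which all members but Tgfb3 reached. The main fold changes of Tgfb2, Tgfbr1, Smad7 and Tgfbi (0.27, 0.16, 0.09 and 0.39) were below 0.41. Those of Inhba, Tgfb1, Tgfbr2 and Smad3 (1.85, 0.74, 0.88 and 0.81) were above it.

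**Figure D4:**
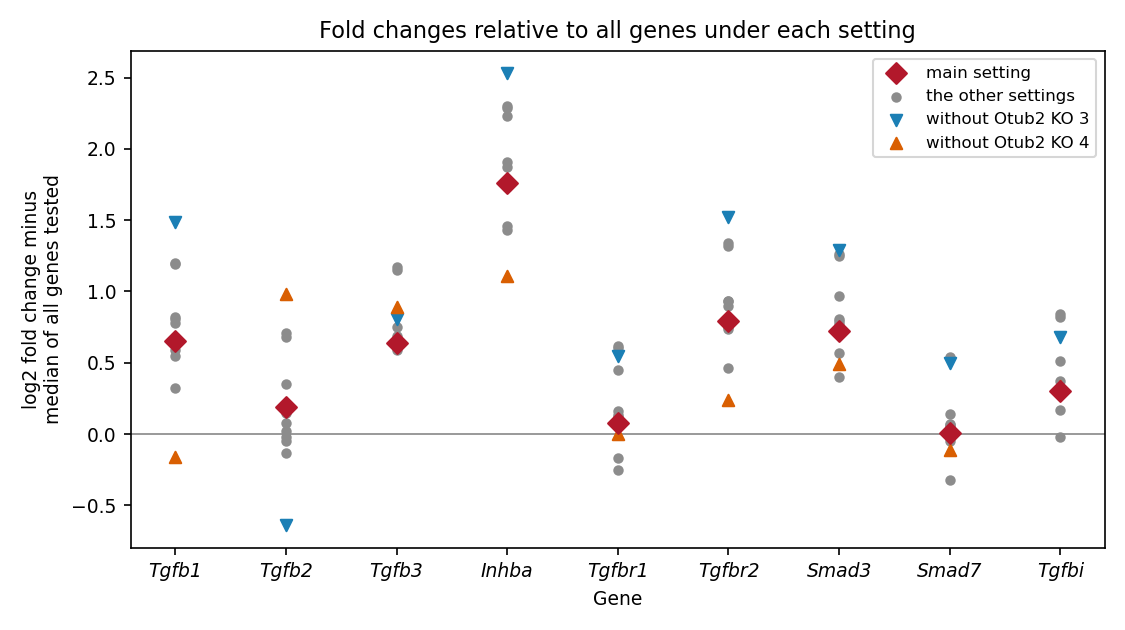
Log2 fold change of each gene minus the median of all genes tested, in the main setting (red) and in 14 other settings. Inhba stays between 1.11 and 2.53, whereas leaving out Otub2 KO 3 or Otub2 KO 4 puts Tgfb2 at -0.64 or 0.98.

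Of 84 other tested genes of the pathway (86 listed), 38 lay above both controls, 9 below and 37 neither. That is 45.2% above and 10.7% below, where all genes tested gave 26.9% and 33.1%. Among the 73 of them that averaged 5 CPM or more, 47.9% lay above and 6.85% below, against 42.7% and 12% of all genes at that level. None was called by edgeR over all genes. An unadjusted p under 0.05 was reached by 24 of the 84 in the higher direction (28.6%, against 9.42% of all genes tested) and by 0 in the lower (against 15.2%). At 5 CPM or more the shares were 32.9% and 0%, against 15.6% and 3.66% of all genes. Of the 24, 14 were on the list of response genes. Among these were Col1a1, Col1a2 and Acta2, also markers of fibroblasts or smooth muscle, and Ankrd1 and Tpm1, which heart muscle also expresses. The part of other cell types in these counts was not tested, and the lists were chosen with earlier results of these data known.

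Of 13 genes of ligand storage and activation, 5 lay above both controls (38.5%) and 0 below, against 26.9% and 33.1% of all genes tested. Of all genes averaging 5 CPM or more, 42.7% lay above and 12% below. Ltbp4, a latent TGF-beta binding protein, was at 62.7 and 78.1 CPM across the controls, 193 in library 3 and 309 in library 4 (log2 fold change 1.83, SE 0.347, edgeR adjusted p = 0.166). Its relative Ltbp3 measured 50.6 and 42.7 CPM against 107 and 101 CPM (1.16, SE 0.249, edgeR adjusted p = 0.166). Itgb6, the chain of the epithelial integrin that frees latent TGF-beta, measured 13.1 and 19.1 CPM against 40.4 and 39.4 CPM (1.31, SE 0.325, edgeR adjusted p = 0.166). Thbs1, thrombospondin 1, which can also activate the latent complex, was at 17.8 and 31.3 CPM against 41 and 53.8 CPM (0.95, edgeR adjusted p = 0.206). In these 4 genes both libraries labelled Otub2 knockout exceeded both controls, but they were named for having the smallest p of the list. That choice favours genes that separate, and 8 of the 13 lay neither above nor below both controls. The genes named below from the other ligand, receptor, SMAD and inhibitor lists were picked by the same rule.

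Of 7 tested genes for other activin-type ligands and extracellular inhibitors (8 listed), 5 lay above both controls (71.4%) and 0 below. All genes tested gave 26.9% and 33.1%, and those averaging 5 CPM or more 42.7% and 12%. Fst, follistatin, which binds and blocks activin, was at 9.52 and 9.37 CPM across the controls, 12.8 in library 3 and 139 in library 4 (log2 fold change 3.01, SE 1.08, edgeR adjusted p = 0.188). Its relative Fstl3 followed the same order at 2.59, 2.2, 3.35 and 8.52 CPM. The FPKM ratio of Inhba to Fst was 1.84 and 3.06 in the controls, 3.66 in library 3 and 0.856 in library 4, so that Fst exceeded Inhba per length only in library 4. Inha, the inhibin alpha chain that pairs with the Inhba product to form inhibin, was at 4.83 CPM in both controls, 26 in library 3 and 11.5 in library 4 (1.95, SE 0.528, edgeR adjusted p = 0.166). Bgn, biglycan, a matrix proteoglycan that binds TGF-beta, was at 10.4 and 10.2 CPM against 99.2 and 25.6 CPM, with its highest level in library 3, where fibroblast markers were also highest; their part in it was not tested.

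Of 10 other receptors and coreceptors, 3 lay above (30%) and 2 below (20%) both controls. All genes tested gave 26.9% and 33.1%, and those averaging 5 CPM or more 42.7% and 12%. Eng and Acvrl1, a coreceptor and a type I receptor best known from endothelium, were at 16.9 and 20.6 against 46.4 and 26.6 CPM and at 5.95 and 6.52 against 13.9 and 11.2 CPM. Tgfbr3, the betaglycan coreceptor, was at 4.55 and 6.37 CPM across the controls, 25 in library 3 and 4.45 in library 4. All 3 were highest in library 3, where endothelial markers summed to 375 CPM against 89.2 to 108 CPM in the controls; their part in these levels was not tested. Acvr1c, an activin and nodal receptor, measured 2.66 and 2.64 CPM against 1.89 and 0.871 CPM. Of 8 other SMAD and anchor genes 3 lay above (37.5%) and 2 below (25%). Those above included Smad4, the partner of SMAD3, at 41 and 45 CPM against 59.4 and 80.7 CPM (log2 fold change 0.70, edgeR adjusted p = 0.202). The nuclear ubiquitin ligase Trim33 (0.34) was also above, and the inhibitory Smad6 (-0.40) and Smad9 (-0.96) were below. Of 11 intracellular inhibitors 3 lay above (27.3%) and 1 below (9.09%). Smurf2, a ubiquitin ligase that SMAD7 brings to the receptor, measured 27.6 and 35.6 CPM against 55.9 and 65.4 CPM (0.94, SE 0.277, edgeR adjusted p = 0.168). The ligase Nedd4l had a log2 fold change of 1.24, Smurf1 of 0.51 and the SMAD corepressor Ski of 0.48 (edgeR adjusted p = 0.188, 0.357 and 0.295).

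Response genes beside Tgfbi were above both controls in 18 of 33 tested (34 listed) and below in 4 (54.5% and 12.1%), with a median log2 fold change of 1.21, where all genes tested gave 26.9%, 33.1% and 0.09. Among the 30 that averaged 5 CPM or more, 56.7% lay above and 6.67% below with a median of 1.27, against 42.7%, 12% and 0.41 of all genes at that level. For the collagen genes Col1a1 and Col1a2 the log2 fold changes were 1.54 and 1.34, and for the actin gene Acta2 3.58, with Acta2 at 120 CPM in library 3 and 31.2 CPM in library 4 against 5.25 and 7.4 CPM in the controls. These 3 are also markers of fibroblasts or smooth muscle; without such markers 15 of 30 response genes lay above and 4 below, with a median of 0.88. Ankrd1, Tpm1 and Cdh2, which heart muscle also expresses and which were chosen after their values were seen, were at 536, 2696 and 91.1 CPM in library 3 and at 3.05, 354 and 0.677 CPM in library 4. Library 3 is the one with the cardiomyocyte markers, and the part of other cell types in these levels was not tested. Chosen after their values were seen, Cdkn1a and Cdkn2b, inhibitors of the cell cycle that TGF-beta induces in epithelium, lay below both controls, at 285 and 276 against 140 and 197 CPM and at 22.3 and 14.4 against 8.59 and 13.3 CPM (edgeR adjusted p = 0.207 and 0.313). Pmepa1 and Skil, feedback inhibitors that TGF-beta induces and also chosen after their values were seen, had log2 fold changes of -0.28 and 0.17. Of the 15 response genes on no such marker list that lay above both controls, Tnc, Tgfb1i1, Fn1 and Id2 had 3.38, 2.64, 1.35 and 1.23. They too were chosen after their values were seen.

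Over the 4 libraries, the pattern of each member was compared with 11189 genes of mean CPM at least 5 by the distance between centred log2 CPM values, where 0 is an identical pattern. With 4 libraries many genes lie this close, so the values describe the pattern only. Near to Inhba lay Sema3c (0.10), nearest to Tgfb1 were Slc7a8 (0.04) and Traip (0.04), and nearest to Tgfb3 Zfp362 (0.04) and Msl3 (0.04). Nearest to Tgfb2 were Emcn (0.09), an endothelial sialomucin among the markers above, and Plpp1 (0.18). Tgfbr1 lay nearest Hif1a (0.06) and Capza1 (0.07), Tgfbr2 nearest Vrk1 (0.03) and Ccdc82 (0.05), and Smad3 nearest Pitpnb (0.05) and Lonrf3 (0.05). Smad7 lay nearest Elavl1 (0.01) and Ccdc58 (0.02), and Tgfbi nearest Pafah1b1 (0.03) and Atr (0.04). Among the members themselves, the closest pairs were Tgfbr1 with Smad7 (0.32) and with Tgfbi (0.33), followed by Tgfb1 with Tgfbr2 (0.34), and Tgfb2 was the most isolated, 1.26 from Tgfb3.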

How the data were processed

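The deposited table gives raw read counts per gene and FPKM values made by the authors, per the file headers. HISAT2, DESeq and GRCh38, a human build, are listed in the submitters' processing notes, while the IDs are mouse Ensembl IDs; 54409 of 54446 were found in GENCODE mouse release M21 (GRCm38), which gave the coordinates. For the counting tool and strand setting, the sources used here give nothing. Each deposited FPKM equals its count over a gene length and its column's total (largest relative error 2.22e-14 over 43282 genes). Features without an Ensembl ID (14785; 0.914% to 2.84% of counts) entered neither library sizes nor tests, and 0 columns of per-sample values were left unused.

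All genes were fitted with edgeR 4.0.16 (quasi-likelihood F-test, TMM, filterByExpr, Benjamini-Hochberg at 0.05 over 21916 genes) in R 4.3.3, with DESeq2 1.42.0 and voom of limma 3.58.1 as alternatives; the scripts were tested on simulated data. Log2 CPM of single libraries used a prior count of 2. Libraries 3 and 4 were matched to titles by number. Replicates differed by more than sampling noise (chi-square over degrees of freedom: 13.9 between the controls, 611 between libraries 3 and 4), so none was the same library sequenced again. These values cannot tell whether libraries came from the same animal, culture or RNA. The members and lists were chosen with earlier results of these data known. All members were named, with the 4 genes of smallest p in each other pathway list and the 2 genes nearest to each member in pattern, without predicted genes; some genes that this rule names are not reported here.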

Additional observations from a re-analysis of the deposited data

How the results depend on the processing

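Inhba, Tgfb3, Tgfbr2 and Smad3 kept a positive log2 fold change in all of the 14 alternative settings in which they were tested (Tgfb3 in 13); the cause of the other changes was not tested. Tgfb2 turned to -0.20 with upper-quartile scaling, -0.37 with library size only, -0.20 with median-centred libraries, -0.04 with a mean CPM of at least 5 and -0.03 with voom. Tgfbr1 turned to -0.30, -0.22, -0.11 and -0.16 and Smad7 to -0.37, -0.28, -0.17 and -0.24 under the first 4 of these, and Tgfbi to -0.08 and -0.02 under the first pair. Leaving out each library in turn gave log2 fold changes from -0.25 to 1.35 for Tgfb1, -0.78 to 0.88 for Tgfb2, -0.10 to 0.51 for Tgfbr1 and -0.20 to 0.36 for Smad7; Tgfbr1 was at -0.08 without Control 1, and the lowest value of Tgfb1, Tgfbr1 and Smad7 came without library 4. Members above both controls numbered 2 with upper-quartile scaling, 0 with library size only and 2 with median-centred libraries, where 10.4%, 9.17% and 12.5% of all genes did. With a mean CPM of at least 5 the count was 1 of 8 (Inhba), against 22.8% of all genes. It was 5 to 8 when a library was left out, against 32.6% to 40.8% of all genes. Members below both numbered 1 with upper-quartile scaling (Smad7), against 48.5% of all genes, and 0 to 2 when a library was left out, against 37.6% to 47.6%. DESeq2 called 1 member higher (Inhba), as were 4.36% of the genes to which it gave an adjusted p. Genes called higher and lower were 751 and 262 with DESeq2, 37 and 1433 with library size only, 6 and 3 without a low-count filter, and 0 to 5243 and 0 to 5097 when a library was left out. The difference in the Tgfb1 share ran from -18.92 percentage points without library 4 to 20.31 without library 3. No paired analysis was possible because the groups share no replicate number. Depth limits Tgfb3 most among the members, with 38 to 89 counts per library.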

Other observations

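Deubiquitinases that act on TGF-beta receptors or SMADs were listed as well, since Otub2 belongs to the same class of enzymes. In both libraries labelled Otub2 knockout, 3 of the 7 exceeded both controls (42.9%, against 26.9% of all genes tested) and 0 were below. Among the 6 that averaged 5 CPM or more the share was 33.3%, against 42.7% of all genes at that level, and none was called by edgeR over all genes. Cyld, which removes ubiquitin chains from signalling proteins, was at 18.1 and 20.7 CPM across the controls, 57.5 in library 3 and 36.7 in library 4 (log2 fold change 1.28, SE 0.338, edgeR adjusted p = 0.166). Usp9x, which acts on SMAD4, was at 28.1 and 70.5 CPM across the controls against 154 and 99.8 CPM in the knockout-labelled pair (1.37, SE 0.515, edgeR adjusted p = 0.197), and its controls differed by 1.33 on the log2 scale. Usp11 was at 2.73 and 2.71 CPM against 3.28 and 7.31 CPM, and Usp15 at 64.9 and 83.3 CPM against 104 and 79.3 CPM. Otub1, the paralog of Otub2, chosen after its values were seen, was at 68.6 and 58 CPM across the controls against 63.5 and 72.1 CPM in the knockout-labelled pair (log2 fold change 0.10, edgeR adjusted p = 0.811).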
